A study of Mus musculus with 18 samples.

Results

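The accessible chromatin around 8 genes that restrain inflammatory signalling was examined in mouse macrophages. A first group edits or reads ubiquitin chains: Tnfaip3 (which encodes A20), Tnip1 (ABIN-1), Tnip2 (ABIN-2) and Cyld. The second group degrades cytokine mRNAs: Zc3h12a (Regnase-1), Zfp36 (tristetraprolin, TTP), Zfp36l1 and Zfp36l2. The genes were given by name, in a list drawn up with earlier results of these data known, and no measured value entered the rule. For each of them, all regions in the gene body and within 50 kb of its most upstream annotated start site were taken (GENCODE M21, mm10). These 8 of 21938 protein-coding genes held 213 of 84660 summits, 195 of 82391 reference peaks and 96 of 59617 extended regions. A reference peak is an accessible interval, a summit is the single base at which accessibility peaked, and an extended region is a peak with added flanks, joined with its neighbours where the flanks met. The widths given below for extended regions include these flanks. Of the extended regions, 4 reached into a window with their edge while their summits lay outside it.

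The regions came from ATAC-seq, in which the transposase Tn5 inserts adapters into exposed DNA. The cells were wild-type bone marrow-derived macrophages (BMDMs), which are cultured from the marrow and, according to the study's methods, came from male C57/BL6 mice. All of them, controls included, had first received the solvent DMSO for 1 h. They then stayed untreated or received 10 ng/mL of either lipopolysaccharide (LPS), the outer membrane component of bacteria that activates Toll-like receptor 4, or interleukin-4 (IL-4), and were collected after 30 min, 1 h, 2 h or 4 h. The 9 groups (1 untreated, 4 LPS and 4 IL-4) had 2 libraries each. All 18 libraries were pooled by the authors into a single catalog with no column per library. It is thus unknown in which group a region was open, no depth or replicate spread can be given, and every value below describes the catalog without a test.

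The cell type was checked with marker genes. Start site peaks, meaning reference peaks that overlap the 1000 bp on either side of an annotated start site, were found at 8 of 8 macrophage markers, among them Spi1 and Csf1r. The same was true of 1 of 4 T cell genes (Lck), 2 of 4 B cell genes (Pax5 and Ms4a1), 0 of 3 epithelial genes, 0 of 2 hepatocyte genes and 1 of 2 neuronal genes (Syn1). Over all protein-coding genes, 56.5% had a start site peak. The part of other cells in the values below was not tested.

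Signals from Toll-like receptors and TNF receptors are carried by ubiquitin chains that recruit kinases, and these kinases free NF-kB to enter the nucleus. A20 edits or caps such chains, the ABIN proteins bind them together with A20, and CYLD cleaves linear and K63-linked chains. The second brake acts on the message. TTP and its relatives bind AU-rich elements in mRNAs such as that of Tnf and recruit deadenylases, whereas Regnase-1 is an endonuclease that cuts stem-loops in cytokine mRNAs. Several of these genes are known targets of NF-kB, so that they form negative feedback loops, and mice that lack A20 or TTP develop inflammation.

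The sequences next to the start sites of Tnfaip3, Tnip1 and Cyld are shown because they carry matches to the NF-kB consensus under a start site peak. They come from the RefSeq promoter windows (GRCm38.p6, which shares the coordinates of mm10), reduced to the bases before the start site that no exon of the gene covers. They read 5′ to 3′ on the strand of the gene, and capitals mark NF-kB matches.
Tnfaip3, chr10:19015411-19015547, strand -: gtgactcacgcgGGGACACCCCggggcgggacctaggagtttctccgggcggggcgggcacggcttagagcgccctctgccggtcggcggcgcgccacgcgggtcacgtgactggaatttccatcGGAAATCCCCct
Tnip1, chr11:54962941-54963190, strand -: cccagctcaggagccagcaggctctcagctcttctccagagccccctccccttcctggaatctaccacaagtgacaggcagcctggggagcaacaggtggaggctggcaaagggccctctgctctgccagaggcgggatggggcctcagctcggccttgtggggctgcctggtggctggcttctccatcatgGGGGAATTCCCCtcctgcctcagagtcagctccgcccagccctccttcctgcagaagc
Cyld, chr8:88696778-88697027, strand +: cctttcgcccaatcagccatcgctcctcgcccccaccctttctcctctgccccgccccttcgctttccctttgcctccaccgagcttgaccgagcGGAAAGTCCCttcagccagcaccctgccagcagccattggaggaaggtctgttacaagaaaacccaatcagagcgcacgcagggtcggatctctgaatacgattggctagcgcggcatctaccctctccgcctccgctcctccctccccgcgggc

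In Tnfaip3, the first base of the matches lay 125 and 12 bp before the RefSeq start site of the window shown. A second RefSeq window of Tnfaip3 (chr10:19011914-19012213), under a peak with a summit score of 544, contained no NF-kB match. The longer capital run in Tnip1, 12 bases, is a palindrome in which 3 overlapping matches began 58, 57 and 56 bp before the start site. The match in Cyld began 155 bp before the start site. An NF-kB match was found in the RefSeq windows of 4.51% of 32851 promoters. The table held 7 of the 8 genes, and the windows of Tnip2, Zc3h12a, Zfp36 and Zfp36l1 did not contain these letters.

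Tnip1 also carried matches at summits away from its start sites. The 101 bases around the 3 of these summits with the closest match are given, and the base of highest accessibility is the central one. At the others, the match was centred 27.5, 45 and 58.5 bp from the summit.
Tnip1, chr11:54961586-54961686, strand -: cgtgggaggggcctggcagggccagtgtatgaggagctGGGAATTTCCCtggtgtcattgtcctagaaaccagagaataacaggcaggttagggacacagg
Tnip1, chr11:54972501-54972601, strand -: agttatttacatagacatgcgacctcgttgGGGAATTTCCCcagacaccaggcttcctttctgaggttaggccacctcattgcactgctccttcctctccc
Tnip1, chr11:54937241-54937341, strand -: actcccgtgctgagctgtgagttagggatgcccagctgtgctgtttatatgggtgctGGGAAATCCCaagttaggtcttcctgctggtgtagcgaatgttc

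The first of these summits is in an intron, 1281 bp past the most upstream start site, and the second is intergenic, 9634 bp upstream. The matches at both contain the same 11 bases. The third lies in an intron 25626 bp downstream. For the mRNA decay genes, a match in the window of each gene is given next (201 bases for Zfp36, where the match was farther from the summit, and 101 bases for the others).
Zc3h12a, chr4:125127430-125127530, strand -: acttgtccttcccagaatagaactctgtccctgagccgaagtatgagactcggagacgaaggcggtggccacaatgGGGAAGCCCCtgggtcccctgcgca
Zfp36, chr7:28382029-28382229, strand -: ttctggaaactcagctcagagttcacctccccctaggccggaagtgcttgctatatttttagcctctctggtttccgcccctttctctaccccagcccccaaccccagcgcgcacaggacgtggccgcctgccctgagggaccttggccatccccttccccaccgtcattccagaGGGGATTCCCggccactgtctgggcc
Zfp36l1, chr12:80115495-80115595, strand -: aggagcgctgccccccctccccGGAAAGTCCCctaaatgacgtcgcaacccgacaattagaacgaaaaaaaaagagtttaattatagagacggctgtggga
Zfp36l2, chr17:84145992-84146092, strand -: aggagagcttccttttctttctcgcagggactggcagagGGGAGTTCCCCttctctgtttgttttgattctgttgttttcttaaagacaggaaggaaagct

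The summit in the first of these sequences lies in an intron of Zc3h12a, 360 bp past its start site. The Zfp36 summit is 1876 bp upstream, inside an intron of the noncoding gene Gm44710. The Zfp36l1 summit is 2532 bp upstream and the Zfp36l2 summit 41905 bp downstream, in an intron of the noncoding gene AC132455.2. In Zc3h12a, Zfp36 and Zfp36l1 the match nearest to the start site is shown, whereas in Zfp36l2 it is the match nearest to a summit. The match of Zfp36l2 that is not shown lay at its own start site, 92.5 bp from a summit with a score of 495.

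The number of regions in each window was determined first. The 8 genes had between 17 and 41 summits, with a median of 26.5, whereas the median over all protein-coding genes was 6 (interquartile range 1 to 12, 95th percentile 23). Tnfaip3 (41 summits) and Tnip1 (38) had the most. At least as many summits as Tnfaip3 were found in 0.488% of protein-coding genes, and at least as many as Tnip1 in 0.688%. Tnip2 (29), Zfp36 (28) and Zc3h12a (25) followed and were reached or passed by 2.1%, 2.44% and 4.1% of genes. Zfp36l2 (18), Cyld (17) and Zfp36l1 (17) lay below the 95th percentile. Their windows were reached or passed by 11.6%, 13.5% and 13.5% of genes, respectively. The order of neighbours in this list cannot be set against a replicate spread.

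The order depended on the score and on the window. When summits below the catalog's median score of 737 were left out, Zfp36 (18) and Zc3h12a (17) came first, followed by Tnip2 (16), Tnip1 (15) and Tnfaip3 (13). Tnfaip3 thus had the most summits through those of low score. With 100 kb on either side of the start site, Tnfaip3 (64) and Tnip1 (54) again came first, and Zfp36l2 rose to 42, above Zfp36 (39), Zc3h12a (33) and Tnip2 (31). With 20 kb, Tnip1 had 33 and Tnfaip3 32, while Tnip2 fell to 15 and Cyld to 4.

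**Figure D1:**
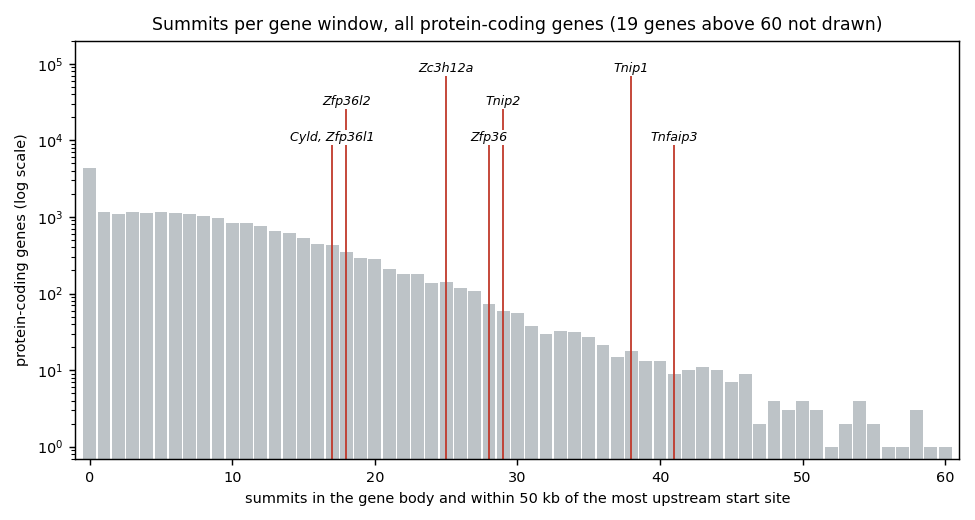
Number of protein-coding genes (log scale) with a given number of summits in the gene body and within 50 kb of the most upstream start site. Red lines mark the 8 genes, from Cyld and Zfp36l1 at 17 summits to Tnfaip3 at 41, all to the right of the median of 6; 19 genes above 60 summits are not drawn.

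The counts of extended regions gave another order, since a dense stretch counts as a single region. Tnip1 had 20 extended regions, and at least as many were found in 1.04% of protein-coding genes. Tnfaip3 and Zfp36l2 had 13 each (7.67% of genes), although Tnfaip3 had 41 summits and Zfp36l2 had 18. Cyld and Zc3h12a had 8 each (30.5% of genes). In Tnfaip3, 23 of the summits lay in a single extended region.

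All 8 genes had a start site peak, as did 56.5% of protein-coding genes. The best summit score at a start site ranged from 1418 to 2100, with a median of 1786. The score is the authors' value for each summit, with a scale that is not stated. Over all summits at start sites of the catalog its median was 990, which is not a median of best values. The median over all summits at a gene's own start sites was below it in Tnfaip3 (589), Tnip1 (769) and Cyld (384) and between 1035 and 1644 in the other 5 genes. Cyld had the highest value (2100), which 7.08% of 12321 genes with a start site summit reached or passed. Zfp36 (2021), Tnip2 (2008) and Zc3h12a (1825) came next, with 11.3%, 12% and 23.5% of genes at or above them. The value was 1747 in Tnip1 (29.3% of genes), 1619 in Zfp36l2 (38.9%) and 1606 in Tnfaip3 (39.8%). Zfp36l1 had 1418, a value that 52.7% of these genes reached or passed, so that its start site was close to the middle of the distribution.

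The number of start site peaks differed as well. Tnfaip3 had 8 peaks near its 6 annotated start sites and Tnip1 had 6 peaks near 10 start sites. Zfp36l2 had 4 peaks near its single start site, and Zfp36l1 had 1 peak near 4 start sites. Tnip2, Cyld, Zc3h12a and Zfp36 each had 3. A reference peak covered the most upstream start site itself in 7 genes. The exception was Zfp36, whose best peak had its summit 945 bp upstream of that position.

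**Figure D2:**
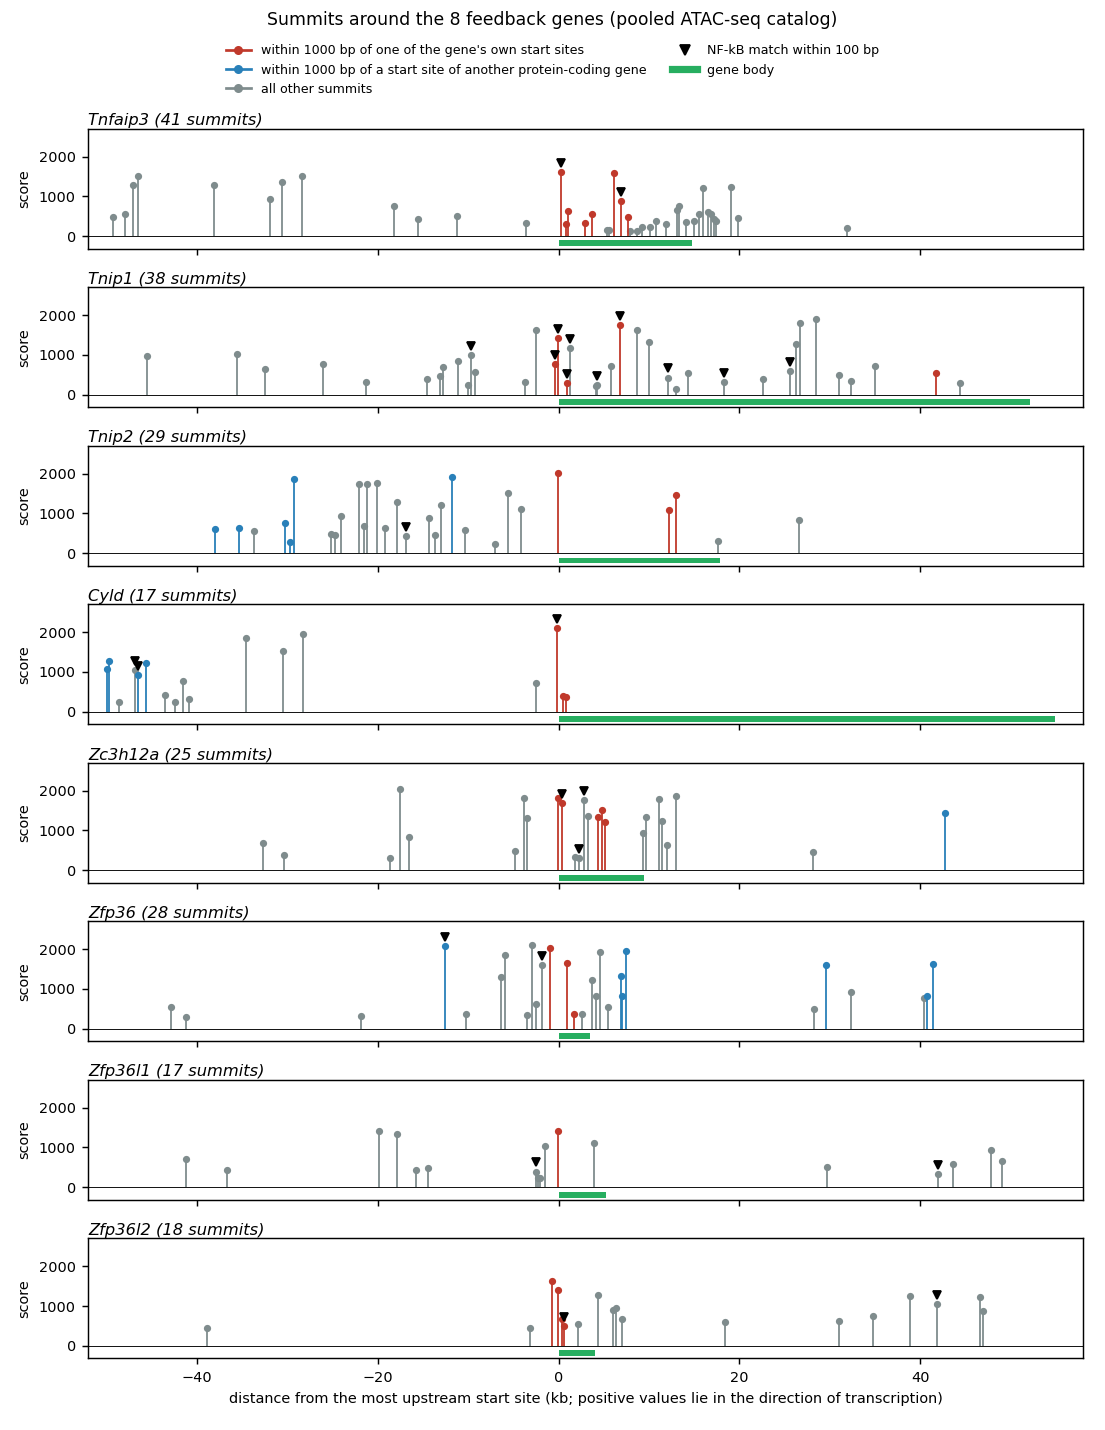
Summit score (vertical axis, scale not stated) by position relative to the gene's first start site in kb, in the direction of transcription, for the 8 windows. Red summits lie within 1000 bp of a start site of the gene, blue ones within 1000 bp of a start site of another protein-coding gene, and black triangles mark an NF-kB match within 100 bp; of the 41 summits of Tnfaip3, 19 lie in the gene body, 10 past its end and 12 upstream, while those of Cyld leave most of the gene body empty.

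Tnfaip3 encodes A20, a deubiquitinase and ubiquitin ligase that ends NF-kB activation. Its gene body of 14748 bp had 19 summits, and 44.1% of it was covered by reference peaks. The median coverage of the 14164 protein-coding genes of at least 10 kb was 1.1%, and 4 of them, Tnfaip3 included, reached 44.1%. A single extended region of 16165 bp (chr10:18997399-19013563) held 23 summits and ran from the first introns through the 3′ UTR to past the end of the gene. At least as many summits were found in 8 of the 59617 extended regions. A separate region of 2681 bp (chr10:19013715-19016395) held the upstream start sites, with 3 summits.

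Many summits of this window were of low score. The median of the 41 summits was 515, against 737 over the whole catalog, and 13 of them reached 737. Coding exons and introns held the lowest values of the window, down to 134. The best summit of the gene (1606, chr10:19015418) lay 8 bp from an annotated start site, and the NF-kB match at bases 19015413 to 19015422 was centred 0.5 bp from it. The next best in the gene (1581) lay in an intron 6084 bp past the most upstream start site. A further NF-kB match was found 67.5 bp from a summit with a score of 889, which lay 72 bp from an internal start site.

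Upstream of Tnfaip3, 12 summits lay in sequence without annotated genes. High scores were found in a cluster far from the gene. Summits 28401, 30552 and 31885 bp upstream scored 1518, 1369 and 934. A summit 38095 bp upstream scored 1272, and a pair 46543 and 47025 bp upstream scored 1505 and 1296. The 2 summits farthest upstream, 47902 and 49304 bp from the start site, were lower, at 554 and 476. The 4 summits between the start site and this cluster scored 332 to 759. No NF-kB match lay within 100 bp of any of the 12 upstream summits. For all 41 summits of the window, the nearest start site of a protein-coding gene was that of Tnfaip3.

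Tnip1 encodes ABIN-1, which binds ubiquitin chains and links them to A20. Of its 38 summits, 22 lay in the gene body of 52133 bp and 14 more than 1000 bp upstream, where the last ones fell into introns of the neighbour Anxa6. The 3 best scores were 1903 and 1812, in introns 28504 and 26672 bp past the start site, and 1747 at chr11:54956085. The last is 2 bp from an internal start site, 6832 bp downstream of the upstream start site, whose own best summit scored 1418. The internal start site was thus marked by a higher score than the upstream one. A summit 2521 bp upstream also reached 1619.

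An NF-kB match lay within 100 bp of 10 of the 38 summits of Tnip1 (26.3%). Among all 21938 protein-coding genes, 2 had at least 10 such summits. The other was Gm20388, with 21 of 421 summits in its window. As a share of the summits in the window, Tnip1 was not the highest, since D10Jhu81e had 8 of 25. Overlapping matches were joined, which left 10 sites in Tnip1, 1 per summit. They lay 7 to 58.5 bp from the summit.

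The scores of these 10 summits covered a wide range. They were 1747 at the internal start site, 1418 and 769 at 59 and 384 bp upstream, and 1002 at 9634 bp upstream. Within the gene body they were 290, 1164, 242, 430, 324 and 583, at distances of 899, 1281, 4298, 12124, 18283 and 25626 bp. The matches were thus found at strong and weak summits alike. The same 11 bases, GGGAATTTCCC, occurred at 3 of these summits, with scores of 1164, 1002 and 430. The best pair of summits in the gene, 1903 and 1812, had no NF-kB match within 100 bp.

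Tnip2 encodes ABIN-2, another partner of A20, which also stabilises the kinase TPL2. Its window held 29 summits, but few were close to the gene. Summits lay at its own start sites (3), elsewhere in the gene body (1), past its end (1) and upstream (24). For 22 of the 29, the nearest protein-coding start site was that of Sh3bp2, the adjacent gene for a signalling adaptor. The best summit, 2008, lay 35 bp before the start site of Tnip2, and the next ones, 1903 and 1864, lay at start sites of Sh3bp2. In introns of Sh3bp2, 3 summits scored 1760, 1747 and 1747, at 20088, 21131 and 22090 bp upstream of Tnip2. A weaker summit (675, 21564 bp upstream) lay between them, and their extended region held 7 summits. The NF-kB match of this window was also found in Sh3bp2, at a summit with a score of 430. The high count of Tnip2 was therefore mainly a count of regions in and around Sh3bp2.

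Cyld encodes a deubiquitinase that dismantles linear and K63-linked chains. Its start site summit at chr8:88696907 had a score of 2100, which 1.04% of all summits reached or passed, and the NF-kB match was centred 29.5 bp from it. The other summits at its start sites scored 384 and 367. No further summit was found in the gene body, which is 54918 bp long and was covered by reference peaks to 1%. This was near the median of 1.1% over protein-coding genes of at least 10 kb. Of the 17 summits in the window, 13 were nearest to start sites of Nod2, a neighbouring gene that encodes an intracellular sensor of bacterial cell wall fragments. They included the other high scores, 1955, 1851 and 1531, in introns of Nod2 at 28307, 34515 and 30466 bp upstream of Cyld. A further pair of NF-kB matches lay in introns of Nod2, at summits with scores of 1036 and 911.

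Zc3h12a encodes Regnase-1. Its 25 summits had the highest median score of the 8 genes, 1320, and 17 of them reached the catalog median of 737. The best lay 17558 bp upstream and scored 2048, and 1.51% of all summits reached or passed this value. At the start site the score was 1825, and past the end of the gene, 12959 bp from the start site, it was 1864. The neighbour Meaf6 had its start site in the window, with a summit score of 1443. The gene is short, 9418 bp, and 32.2% of it was covered by reference peaks, a share that 0.661% of protein-coding genes reached. An extended region of 6878 bp (chr4:125121981-125128858) held 9 summits, and 77 of the 59617 regions held at least as many.

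The NF-kB matches of Zc3h12a all lay in its introns. They were found at summits with scores of 1683, 315 and 1760, located 360, 2246 and 2832 bp past the start site. The centres of the matches were 30.5, 54.5 and 53.5 bp away from these summits. The 250 bases before the start site contained no NF-kB match but 5 matches to GGGCGG, the box bound by SP and KLF factors. This word was found in 35.7% of all RefSeq promoter windows.

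Zfp36 encodes TTP, the founding member of the tandem zinc finger family. The gene is 3470 bp long, and 46.3% of it was covered by reference peaks, which 0.278% of protein-coding genes reached. It lay in an extended region of 12899 bp (chr7:28371668-28384566) with 15 summits, and 19 regions had at least as many. That region also contained the start site of Plekhg2, so that its summits cannot be assigned to Zfp36 alone. High scores were found on both sides of the gene. Upstream, summits scored 2021, 1606, 2100 and 1864 at 945, 1876, 2953 and 5888 bp from the most upstream start site. Past the end of the gene, 4556 bp from this start site, a summit nearest to Plekhg2 scored 1929. The summit at the RefSeq start site scored 1644, which 8.24% of all summits reached.

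The window of Zfp36 is rich in genes. Of its 28 summits, 7 lay within 1000 bp of start sites of Med29, Paf1, Plekhg2, Rps16 or Supt5. These 7 had scores from 823 to 2087, and 11 of the 28 summits were nearest to Zfp36 itself. The NF-kB matches were at the summit 1876 bp upstream and at the shared start region of Med29 and Paf1, 12596 bp upstream (score 2087). The summit near the RefSeq start site of Zfp36 had a match to the CArG box, the element bound by serum response factor. It reads CCATAAAAGG and began 58 bp before the RefSeq start site. CArG matches were found in 1.63% of RefSeq promoter windows and near 1.15% of all summits.

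Zfp36l1 and Zfp36l2 encode the relatives of TTP. Zfp36l1 had 17 summits with a median score of 583, and 6 of them reached 737. Its best summits, both with 1418, lay 49 bp before the start site and 19835 bp upstream, at a start site of the noncoding gene 2310015A10Rik. Reference peaks covered 4.58% of its gene body. The NF-kB matches were at weak summits, with scores of 393 and 324. Zfp36l1 was thus the gene with the lowest start site score and, together with Tnfaip3, among those with the lowest median scores.

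Zfp36l2 had 18 summits with a median of 813. The best were 1619 and 1406, at 704 and 68 bp before the start site, and 1284 just past the end of the gene. Its summits lay mainly on that side, with 11 past the gene end and 2 upstream beyond the start site. NF-kB matches were found at a summit with 495, located 627 bp past the start site, and at a summit with 1059, located 41905 bp downstream. The centre of the latter match was 6 bp from the summit.

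**Figure D3:**
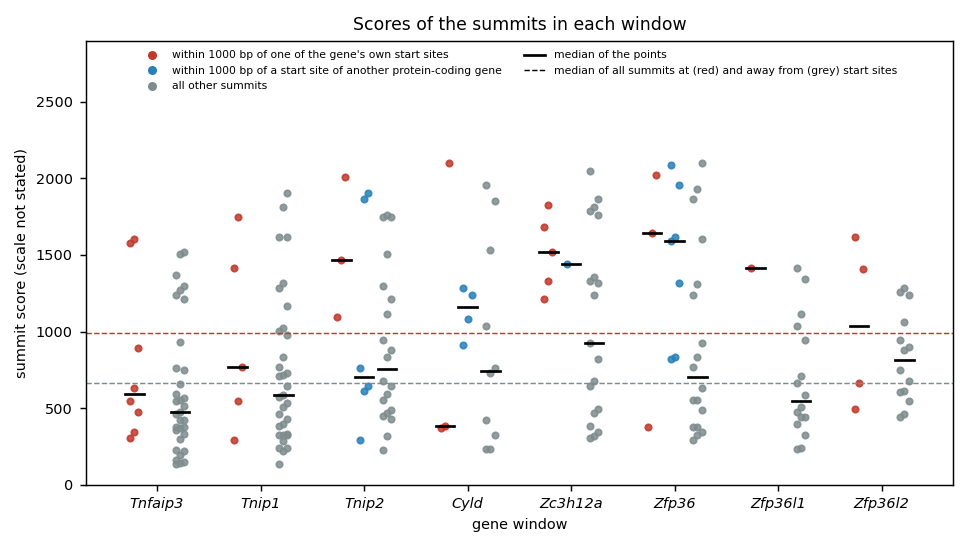
Scores of the 213 summits (vertical axis, scale not stated) in the 8 windows, split into summits at the gene's own start sites (red), at start sites of other protein-coding genes (blue) and elsewhere (grey). Black bars are medians of the points, and dashed lines are the medians of all summits at start sites (990) and away from them (664); the window of Zc3h12a has the highest median over all its points, 1320, and the points of Tnfaip3 away from start sites reach down to 134.

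Taking the 8 windows as a whole, 32 summits lay at start sites of the genes themselves, 39 elsewhere in their gene bodies, 95 upstream and 47 past the gene end. Start sites of other protein-coding genes accounted for 18 of the summits upstream or past the gene end. The median score was 727, close to the 737 of the catalog, and 49.3% of the summits reached the catalog median. The windows thus held more summits than most, at scores like those of the catalog. The nearest protein-coding start site was that of the gene itself for 153 of the 213. This share was complete in Tnfaip3 (41 of 41), high in Tnip1 (36 of 38), Zfp36l2 (17 of 18) and Zc3h12a (22 of 25), and low in Tnip2 (7 of 29) and Cyld (4 of 17).

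Sequence words of 11 transcription factor families were then looked for on either strand in the 100 bp to the left and right of each summit. They were NF-kB, the CArG box and CTCF by their consensus, AP-1 (TGAGTCA), PU.1/ETS (GAGGAAGT), RUNX (TGTGGT), IRF (GAAANNGAA), STAT (TTC and GAA spaced by 3 or 4 bases), C/EBP (TTGCNNAA), CRE (TGACGTCA) and SP/KLF (GGGCGG). A single position can match more than 1 of them. Of the 213 summits, 57 had none of these words, 99 had words of 1 family and 57 had words of 2 or more.

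NF-kB was found near 25 of the 213 summits (11.7%) and near 5.55% of all 84660 summits. All 8 genes had at least 1 such summit in the window, compared with 29% of protein-coding genes. A gene with many summits has more chances to hold a match. At summits within 1000 bp of any start site the share was 13 of 59 (22%), against 5.08% of all such summits. Away from start sites it was 12 of 154 (7.79%), against 5.75%. At their own start sites, 5 of 8 genes (Tnfaip3, Tnip1, Cyld, Zc3h12a and Zfp36l2) had a match, as did 8.98% of 12321 genes with a start site summit. The 8 genes had 32 summits at their own start sites, from 1 in Zfp36l1 to 8 in Tnfaip3. A gene with many such summits again has more chances, and the shares were not matched for this number.

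Tnip1 contributed 10 of the 25 summits. Without its window, which was a choice made after the values were seen, 15 of 175 summits (8.57%) had a match. The share at start sites was then 9 of 54 (16.7%), and away from start sites it was 6 of 121 (4.96%), below the 5.75% of the catalog. The difference between the windows and the catalog was thus found at start sites of any gene with or without Tnip1, while away from start sites it rested on Tnip1. Of the 13 summits with a match at start sites, 9 lay at start sites of the 8 genes themselves, 4 of them in Tnip1. The others lay at start sites of Nod2, of Med29 and Paf1, and of the noncoding genes Gm22847 and 1300014J16Rik. The 25 sites lay at a median of 29.5 bp from their summits, and 19 of them within 50 bp. Of all summits in the catalog, 3.4% had a match within 50 bp and 5.55% within 100 bp, so that most matches there were also close.

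The other families were compared in the same way. AP-1, the word bound by FOS and JUN proteins, was near 15.5% of the summits in the windows and 15.9% of all summits. PU.1/ETS, which marks macrophage enhancers, was near 8.92% and 9.08%. RUNX was near 16.9% and 19.4%, and 13 of its 36 summits belonged to Tnfaip3. IRF (7.98% and 8.12%), STAT (11.7% and 12.6%) and C/EBP (10.8% and 11.4%) gave similar pairs. At start sites, STAT (16.9% and 8.82%), C/EBP (13.6% and 7.2%) and IRF (10.2% and 5.76%) were more frequent in the windows, from 10, 8 and 6 summits, whereas RUNX (5.08% and 11.9%) and PU.1/ETS (1.69% and 5.08%) were less frequent, from 3 summits and 1 summit. Away from start sites, STAT (9.74% and 14.2%) and C/EBP (9.74% and 13.1%) were less frequent in the windows. Tnip1 had no summit with an IRF word, while the windows of Tnip2 and Cyld had 4 each. All of those in the Tnip2 window lay in Sh3bp2, and part of those in the Cyld window lay in Nod2. CRE matched 0 of 213 summits (upper limit 1.41%, from 3 counts, counting error only), against 0.938% of all summits. CTCF was near 7 summits (3.29% and 3.03%), of which 3 were in the window of Tnip1. CArG was near 4 summits (1.88% and 1.15%), of which 2 were in the window of Tnfaip3.

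**Figure D4:**
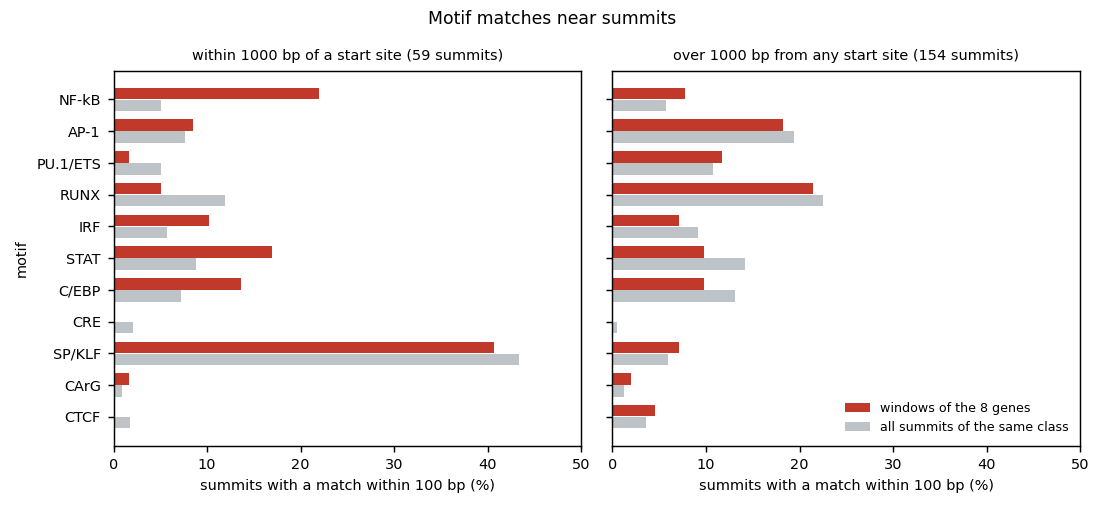
Percentage of summits with a word of each family within 100 bp, for the windows of the 8 genes (red) and all summits of the same class (grey). The left panel holds summits at start sites of any gene (59), and the right panel those away from them (154). NF-kB at start sites reaches 22% against 5.08%, and SP/KLF is the most frequent word at start sites in both sets.

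Other genes of the same pathways were examined for comparison. Among 16 partners of A20 and genes of ubiquitin chain editing, 16 had a start site peak, with 5 to 22 summits per window and a median of 13. Tnip3 (22), the third ABIN gene, and Otulin (21), which encodes the deubiquitinase of linear chains, had the most. An NF-kB match near a summit at their own start site was found in 3 of the 16. Among 21 genes of mRNA decay, 19 had a start site peak, with 0 to 28 summits and a median of 8. N4bp1 (28), which carries an RNase domain like that of Regnase-1, and Zc3h12c (16) had the most, and Zfp36l3 and Zc3h12b had no start site peak. An NF-kB match at an own start site was found in 1 of the 21. The shares over protein-coding genes were 8.98% of the 12321 with a start site summit for this match and 56.5% for a start site peak. The corresponding median of the 8 feedback genes was 26.5, and their lowest count, 17, was above both medians. The 8 macrophage markers came closer, with 14 to 33 summits and a median of 21, and their median of 11.5 extended regions equalled that of the feedback genes.

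Genes that act on the same signals in other ways were set beside them. The 11 NF-kB subunits and inhibitors had 15 to 53 summits (median 18), with Nfkbiz (53) and Nfkb1 (45) at the top. All 11 had a start site peak, and 10 had an NF-kB match at a summit of their own start sites. All 11 windows of this list held a summit with a match, as did 8 of 8 of the feedback genes and 5 of 8 of the macrophage markers. The list had 40 such summits over 11 genes, against 25 over the 8 feedback genes. The most summits with a match in a single window of this list was 6, compared with 10 in Tnip1. The SOCS genes and Cish, inhibitors of cytokine receptor signalling, had 6 to 42 summits (median 15), with Socs3 (42) and Cish (34) at the top. Of these 8 genes, all had a start site peak and 6 had an NF-kB match near a summit in the window. At its own start sites 1 had a match, against 8.98% of protein-coding genes with a start site summit. The best start site score had a median of 1786 in the feedback genes, 1864 in the NF-kB genes and 1549.5 in the SOCS genes, so that the feedback genes lay between them. These lists differ in size and overlap in function, and the differences between them were not tested.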

How the data were processed

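The 18 ATAC-seq libraries (9 groups of 2, single-end reads of 76 bases) had been processed by the authors. According to the study's methods, adapters were removed with BBDuk, reads were trimmed with Trimmomatic 0.39 and mapped to mm10 with ShortStack, SAMtools 1.9 removed mitochondrial and low quality reads, and MACS2 2.2.6 called peaks and summits with duplicates kept. Peaks passed a strict q-value and overlapped between replicates. Since duplicates were kept, PCR copies can raise a summit, and no shift to the Tn5 cut site is named.

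The authors deposited 3 lists, with positions of reference peaks, extended regions and summits. The summit list carries a score per summit, as deposited, whose scale is not stated. Neither group nor depth can be recovered from it, so that no test was made and no precision per library can be given.

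Positions are on mm10, counted from 1. All entries lay inside the chromosome on 21 of 21 chromosomes of GRCm38.p6. Genes and start sites came from GENCODE M21, and promoter windows (250 bp before to 50 bp after the start) from RefSeq. Summits were assigned by position with Python 3.11.15 and numpy 2.4.6, with code tested on simulated intervals. Words were searched within 100 bp of summits. Named were all 8 genes, their start site peaks, their 3 best scored summits, every summit with an NF-kB match, other protein-coding genes with a start site within 1000 bp of a summit in a window, and from the pathway lists the genes without a start site peak and the 2 with the most summits. Values named beyond this rule were chosen after they were seen. The genes and lists were chosen with earlier results of these data known. The alternatives tried were other windows around genes, start sites and summits, a score filter, and sets without shared or start site summits.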

Additional observations from a re-analysis of the deposited data

How the results depend on the processing

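The 8 windows held 213 summits, 195 reference peaks and 96 extended regions. With 20 kb on either side of the start site the extended regions fell to 48, and with 100 kb the windows held 298 reference peaks and 171 extended regions. Keeping summits at or above the median score left 105 summits, 94 reference peaks, 58 extended regions and 15 summits with an NF-kB match instead of 25. Away from start sites 12 summits had such a match, and without Tnip1 15. These alternatives use fewer summits or longer windows by construction. The other 21 values of this kind stayed within 1.5 times, among them the 8 genes with a start site peak at 500 and 2500 bp. NF-kB was near 19 summits (8.92%, 3.4% of all) within 50 bp and near 35 (16.4%, 8.05% of all) within 200 bp. Of the values for single genes and the other words, 147 stayed within 1.5 times and 77 did not. No paired analysis was possible because the lists carry no column per library and no result comes from a test. Leaving out replicates was not possible for the same reason. Depth per library is unknown, so that an absent peak, as in the gene body of Cyld, says only that none was in the catalog. Windows shared with Sh3bp2, Nod2 or Plekhg2 do not tell which gene a region serves.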
